A study of Danio rerio with 4 samples.

Results

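Elastic fibres and the fine matrix around them were represented by 4 genes, *elnb* (ENSDARG00000069017), *mfap5* (ENSDARG00000090560), *dpt* (listed as DPT, ENSDARG00000056178) and *mgp* (ENSDARG00000086189), out of 20880 genes with a transcript. They were selected by gene ID with earlier results of these libraries known, so their genotype and cluster values are given as descriptions. The levels, the share of cells with a transcript, co-detection and the genes most correlated with each were measured in the 1453 of 1536 wells that held at least 1000 transcripts, called cells here. The data are SORT-seq libraries, in which a single sorted cell is placed in each well of a plate and transcripts are counted by molecular barcode. There were 2 plates of *prrx1b*-/- cells, carrying the el491 nonsense allele upstream of the DNA-binding domain, and 2 plates of cells from wild-type (WT) siblings. Plates of both genotypes held tcf21:mCherry cells from cryoinjured ventricles at 7 days post injury (dpi). Per the methods these were mCherry-positive, EGFP-negative cells of fish that carried *tcf21:CreERT2* and a ubiquitous loxP-EGFP-loxP-mCherry reporter and were given 4-hydroxytamoxifen as embryos, so that the label marks cells that used the *tcf21* promoter then and their descendants. The fish were of both sexes and 4 to 18 months old, and 20 hearts were named per genotype with no separate hearts for each plate. A difference between plates can therefore be technical, and a difference between genotypes is one between 2 sets of hearts.

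Elastic fibres consist of a core of crosslinked elastin on a scaffold of fibrillin microfibrils and give vessels and valves their recoil. Elastin b, the product of *elnb*, is known in zebrafish from the wall of the outflow tract. Microfibril-associated protein 5, the product of *mfap5*, binds fibrillin and decorates the microfibril. Dermatopontin, the product of *dpt*, is a small matrix protein that binds decorin and speeds the assembly of collagen fibrils. Matrix Gla protein, the product of *mgp*, is a vitamin K-dependent inhibitor of mineralisation that is best known from cartilage and the arterial wall. In an injured heart such proteins are laid down by fibroblasts, smooth muscle and cells derived from the epicardium.

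The *prrx1b*-/- plates held 366 cells each and the WT plates 357 and 364 cells. The median per cell was 7654 and 7543 transcripts in the *prrx1b*-/- plates, against 6055 and 5065 in the WT plates, and the same 384 well barcodes were used on all 4 plates. The name table gave the symbol PRRX1 to a pair of genes and did not tell *prrx1b* from its paralogue. ENSDARG00000033971 had 366 and 477 transcripts in *prrx1b*-/- plates and 342 and 321 in WT plates, and ENSDARG00000042027 had 15 and 9 against 7 and 3, so the transcript level did not serve as a check of the genotype. The epicardial markers *tcf21*, *tbx18*, *hsph1* and *rtca* summed to 581 and 591 CPM (transcripts of a gene scaled to a common plate total) in *prrx1b*-/- plates and 607 and 491 CPM in WT plates after TMM scaling. Of these sums *hsph1*, which is also a heat shock gene, made up 226 and 271 CPM in *prrx1b*-/- plates and 268 and 145 CPM in WT plates. Of the endothelial, cardiomyocyte, leukocyte and erythrocyte lists, 5 of 25 matched genes passed the filter on low counts and were tested. Some had no count at all, and of the 7 matched endothelial genes only 3 had a transcript. Whether such genes were missing from the cells or from the annotation was not examined. The largest summed level of the tested genes of a list was that of cardiomyocytes in WT plate 1, at 119 CPM.

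Transcripts of *elnb* were found in few cells, and a handful of cells held most of them. The plate sums were 266 and 526 transcripts in the *prrx1b*-/- plates, against 112 and 235 in the WT plates. This corresponded to 70.5 and 152 CPM in *prrx1b*-/- plates and 38.5 and 89.5 CPM in WT plates. The second plate was the higher one in both genotypes, by 2.16 times in *prrx1b*-/- and by 2.33 times in WT, and the genotypes overlapped. The means were 111 ± 57.6 CPM in *prrx1b*-/- and 64.0 ± 36.1 CPM in WT (SD, n = 2 plates each). In edgeR's quasi-likelihood fit the log2 fold change was 0.81 with a standard error (SE) of 0.38, and its adjusted p of 0.369 did not pass the threshold of 0.05. It was called with no filter on low counts (0.84), without *prrx1b*-/- replicate 1 (1.26) and without WT replicate 2 (1.60), but was 0.17 without *prrx1b*-/- replicate 2 and 0.29 without WT replicate 1, over adjusted p values from 5.4e-04 to 0.970 in all alternatives.

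At least 1 *elnb* transcript was present in 194 cells, or 13.4% of them (95% Clopper-Pearson interval 11.6 to 15.2%, which covers counting error only, as do all such intervals here). Had every cell drawn *elnb* at the same rate, 47.2% of the cells would have held a transcript. Of the 194 cells, 128 held exactly 1 transcript, 33 held at least 5 and 7 held at least 20. These 7 cells contained 62.7% of all *elnb* transcripts, and they came from every plate and from 5 of the 10 clusters described below. The richest cell, with 257 transcripts, was on *prrx1b*-/- plate 2 and held 48.9% of that plate's *elnb*. On *prrx1b*-/- plate 1 a single cell held 58.2% of the transcripts, and on the WT plates the richest cell held 21.5% and 37.4%. Without the richest cell of each plate the level was 29.5 and 78.3 CPM in *prrx1b*-/- plates and 30.3 and 56.5 CPM in WT plates. The log2 ratio of the genotype means was then 0.31, a setting chosen after the data were seen.

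The share of cells with *elnb* was 12.3% and 15.8% in the *prrx1b*-/- plates, against 11.2% and 14.0% in the WT plates. The difference of 1.46 percentage points was smaller than the spread between plates of 1 genotype (two-sided p = 0.667 from exact permutation of the 4 plates, which allows no p under 0.333). When every cell was thinned to 1000 transcripts, to set the plates to 1 depth, the shares were 2.46% and 4.64% in *prrx1b*-/- and 2.80% and 5.22% in WT, and the difference was -0.46 points.

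Whereas *elnb* was found in few cells, *mfap5* was spread over most of them and its level hardly differed between the genotypes. It reached 610 and 541 CPM in the *prrx1b*-/- plates, against 598 and 550 CPM in the WT plates. The plates of the genotypes interleaved, with means of 575 ± 48.6 CPM in *prrx1b*-/- and 574 ± 33.7 CPM in WT (SD, n = 2 each). The log2 fold change was 0.02 (SE 0.14, adjusted p = 0.968, edgeR). A transcript was present in 1194 cells, 82.2% of all (interval 80.1 to 84.1%). The share was 84.2% and 81.7% in *prrx1b*-/- plates and 84.9% and 78.0% in WT plates, again with overlap (exact permutation p = 1). The highest cell held 56.4 transcripts, 554 cells held at least 5, and the richest 73 cells, 5% of all, contained 24.6% of the transcripts.

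Among the 4 genes, only *dpt* had both *prrx1b*-/- plates above both WT plates in level. It reached 537 and 445 CPM in the *prrx1b*-/- plates, against 378 and 362 CPM in the WT plates. The means were 491 ± 65.0 CPM in *prrx1b*-/- and 370 ± 11.3 CPM in WT (SD, n = 2 each). Of all 11191 genes tested, 22.2% had both *prrx1b*-/- plates above both WT plates and 22.9% had both below. The log2 fold change of *dpt* was 0.42 (SE 0.15, unadjusted p = 0.0141), and with adjustment over all genes it was not called (adjusted p = 0.214, edgeR). It was called without WT replicate 2, at 0.45 (adjusted p = 0.0419, with 0.0419 to 0.875 over all alternatives in edgeR, DESeq2 and limma), and was 0.27 with cells thinned to 1000 transcripts and 0.23 with limma.

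A *dpt* transcript was present in 974 cells, 67.0% of all (interval 64.5 to 69.4%). The share was 73.0% and 68.0% in *prrx1b*-/- plates and 64.1% and 62.9% in WT plates, a difference of 6.96 percentage points (exact permutation p = 0.333, the smallest possible). At 1000 transcripts per cell the shares were 38.3% and 34.4% in *prrx1b*-/- and 25.5% and 35.2% in WT, so that the genotypes overlapped. Cells with at least 5 transcripts made up 38.8% and 32.5% of the *prrx1b*-/- plates, against 24.4% and 21.7% of the WT plates. These unthinned shares stand beside a higher median number of transcripts per cell in the *prrx1b*-/- plates.

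The level of *mgp* was 79.9 and 57.8 CPM in the *prrx1b*-/- plates, against 66.0 and 92.2 CPM in the WT plates. WT plate 2 was the highest and *prrx1b*-/- plate 2 the lowest, so the genotypes overlapped, with means of 68.8 ± 15.6 CPM in *prrx1b*-/- and 79.1 ± 18.5 CPM in WT (SD, n = 2 each). The log2 fold change was -0.18 (SE 0.22, adjusted p = 0.772, edgeR). A transcript was found in 293 cells, 20.2% of all (interval 18.13 to 22.32%), where an equal rate in every cell would have given 41.8%. At 1000 transcripts per cell the share was 7.30%, and the rate pooled over all transcripts would have given 7.06%. That pooled rate weighs deep cells most, whereas thinning weighs all cells equally. The level of *mgp* fell with depth (mean correlation of -0.14 with the log2 total per cell). The 7.06% is therefore not a matched baseline, and it cannot decide whether the shortfall remained with thinning. The share was 23.0% and 20.2% in *prrx1b*-/- plates and 17.6% and 19.8% in WT plates. The unthinned share thus pointed up in *prrx1b*-/- (2.87 percentage points) while the level pointed down and was not called. At 1000 transcripts per cell the shares were 8.74% and 6.83% in *prrx1b*-/- and 5.88% and 7.69% in WT. The difference was then 1.00 point and the genotypes overlapped. The sign of the level was not stable. Its log2 fold change was 0.07 with limma on the mean CPM over cells, 0.05 without *prrx1b*-/- replicate 2 and 0.14 without WT replicate 2. The exact permutation p of the unthinned share, 0.333, was the smallest possible, so that test could not decide. The richest 73 cells contained 64.1% of the *mgp* transcripts and the highest cell held 37.2.

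**Figure D1:**
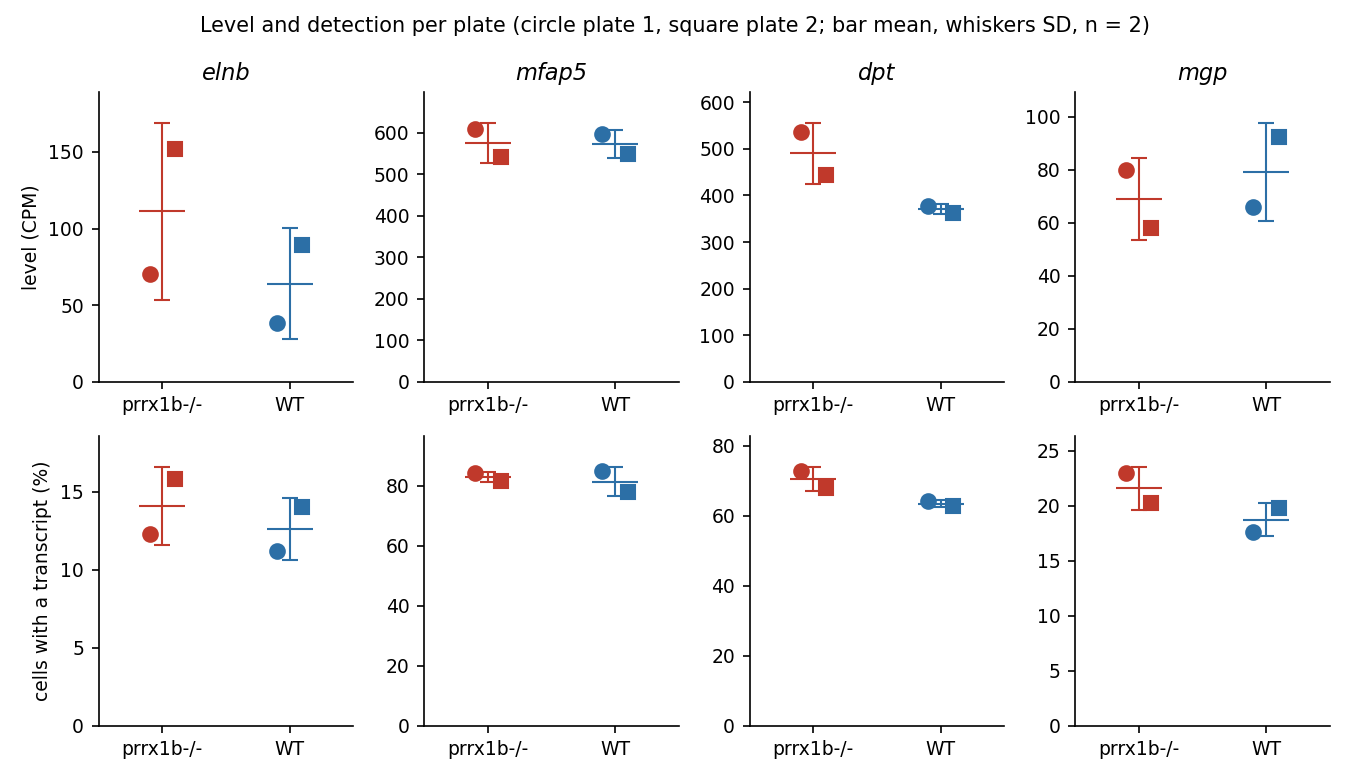
Level in CPM (upper row) and share of cells with at least 1 transcript in percent (lower row) of each gene, with the *prrx1b*-/- plates in red on the left and the WT plates in blue on the right; the horizontal bar is the mean and the whiskers the SD of 2 plates. Only *dpt* has both *prrx1b*-/- plates above both WT plates in level (537 and 445 against 378 and 362 CPM), and the higher *elnb* plate is plate 2 in both genotypes.

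**Figure D2:**
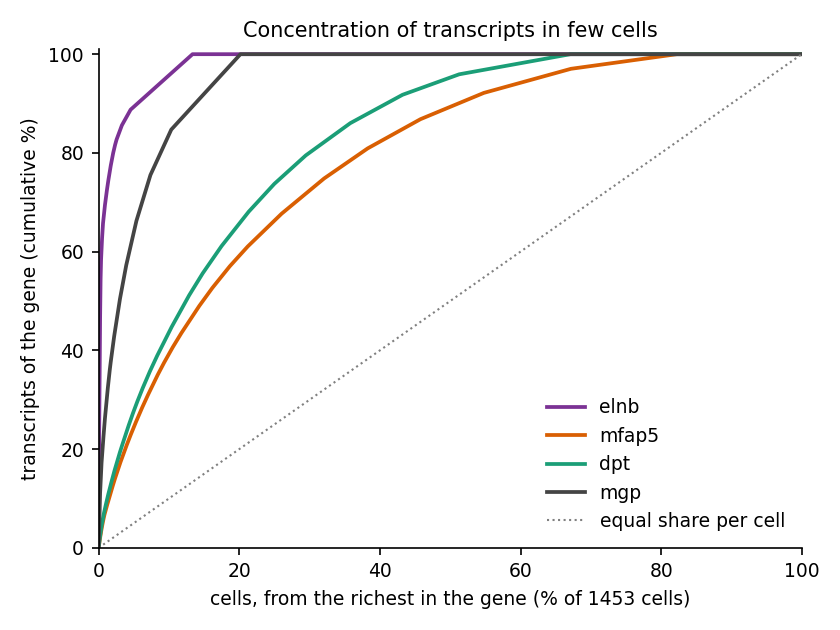
Cumulative percent of a gene's transcripts (vertical axis) against percent of the 1453 cells, ordered from the richest in that gene (horizontal axis), over all 4 plates. The curve of *elnb* rises most steeply, with 89.4% of its transcripts in the richest 5% of the cells, followed by *mgp* with 64.1%, whereas *dpt* (27.8%) and *mfap5* (24.6%) are spread over many cells; the dotted line is an equal share per cell.

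Across all genes, 40 were higher and 69 lower in *prrx1b*-/- cells at an adjusted p under 0.05, that is 0.357% and 0.617% of those tested (0.974% together), and the median log2 fold change was -0.01. None of the 4 genes was among them, nor was any called by DESeq2 or limma, and 1 (*dpt*, higher) had an unadjusted p under 0.05 in edgeR. Of all genes tested, 6.92% were higher and 7.13% lower at that unadjusted p, 1.84% and 1.77% were called higher and lower by DESeq2 among the 4682 genes to which it gave an adjusted p, and 1.04% and 1.3% by limma. Of 33 gene IDs matched to a list of elastic fibre genes, 20 passed the filter on low counts, 1 was higher and none was lower (3 and 1 at an unadjusted p under 0.05, 1 and none with DESeq2 or limma), and the median log2 fold change was 0.13. The list includes *elnb* and *mfap5*. The gene that was higher was *loxl2a* (ENSDARG00000044010), a lysyl oxidase-like enzyme of the family that crosslinks collagen and elastin. It had 201 and 214 CPM in *prrx1b*-/- plates and 91.7 and 126 CPM in WT plates after TMM scaling, a log2 fold change of 0.93 (SE 0.17, adjusted p = 0.0314, edgeR).

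The other lysyl oxidases were not called, with log2 fold changes of 0.39 for LOX, -0.15 for LOXL1, 0.36 for LOXL2 (ENSDARG00000044074) and 0.38 for LOXL3 (adjusted p between 0.319 and 0.706, edgeR). Of the fibulins, which link elastin to microfibrils, *fbln5* had 63.5 and 54.7 CPM in *prrx1b*-/- plates against 38.6 and 42.5 CPM in WT plates, a log2 fold change of 0.55 that was not called (adjusted p = 0.176). FBLN2 (0.16), EFEMP1 (-0.64) and EFEMP2 (-0.06) were not called either. Of the fibrillins, FBN2 had 9 transcripts and did not pass the filter, and *fbn1* and FBN3 were not analysed here. *mfap2*, which encodes the other microfibril-associated glycoprotein that pairs with fibrillin, had a log2 fold change of 0.10 (adjusted p = 0.888, edgeR).

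Small leucine-rich proteoglycans, the partners of dermatopontin on collagen fibrils, gave 6 tested genes of 15 matched, none of them called (2 higher at an unadjusted p under 0.05, where 6.92% of all genes were, 1 higher with DESeq2, none with limma), with a median log2 fold change of 0.42. Of the list of Gla proteins and regulators of mineralisation, 12 of 15 matched genes were tested, none was higher and 1 was lower (2 and 1 at an unadjusted p under 0.05, none and 1 with DESeq2 or limma), with a median of 0.02. That gene was *enpp1* (ENSDARG00000005789), the enzyme that makes pyrophosphate, another inhibitor of mineralisation. It fell to 10.5 and 10.2 CPM in *prrx1b*-/- plates, against 48.0 and 49.9 CPM in WT plates after TMM scaling (log2 fold change -2.23, SE 0.21, adjusted p = 4.6e-04, edgeR). GGCX and VKORC1, which activate Gla proteins through vitamin K, had log2 fold changes of 0.06 and 0.03.

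Transcripts of more than 1 of the 4 genes were found in 956 cells, 65.8% of all, and in 346 cells (23.8%) when each was thinned to 1000 transcripts. Without thinning, none of the 4 was found in 111 cells, 1 in 386, 2 in 646, 3 in 263 and all 4 in 47 cells. The cells with all 4 numbered 11 and 18 on the *prrx1b*-/- plates and 7 and 11 on the WT plates. At 1000 transcripts per cell, 596 cells held none of them and 8 held all.

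*dpt* was found more often in cells with *mfap5* than in cells without it. Among cells with *mfap5*, 70.4% also held *dpt*, against 51.7% of cells without *mfap5*. At 1000 transcripts per cell, where deep cells no longer show more of every gene, the shares were 46.6% and 23.3%. On single plates the thinned shares were 51.7% against 26.0% and 51.3% against 22.4% in *prrx1b*-/-, and 33.8% against 19.0% and 49.3% against 25.7% in WT. All 4 plates thus had the same direction, and WT plate 1 had the lowest shares on both sides.

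*mgp* followed both genes. At 1000 transcripts per cell it was found in 11.9% of cells with *mfap5*, against 3.76% of cells without, and in 12.4% of cells with *dpt*, against 4.75% of those without. Both directions were the same on each of the 4 plates. Cells with *elnb* at this depth numbered 55, and 61.8% of them held *mfap5*, against 42.6% of the other cells. For *dpt* the shares were 45.5% and 32.9% and for *mgp* 20.0% and 6.80%. On single plates these rested on 9 to 19 cells with *elnb*. For *mfap5* the thinned shares among cells with and without *elnb* were 77.8% against 46.8% and 58.8% against 40.7% in *prrx1b*-/-, and 50% against 43.8% and 63.2% against 38.8% in WT, in 1 direction on all 4 plates. The direction turned for *dpt* on WT plate 2 and for *mgp* on WT plate 1, so these pairs were not resolved at this depth. Without thinning it turned for *mfap5* on *prrx1b*-/- plate 1 (82.2% against 84.4%) and for *mgp* on WT plate 1 (17.5% against 17.7%).

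**Figure D3:**
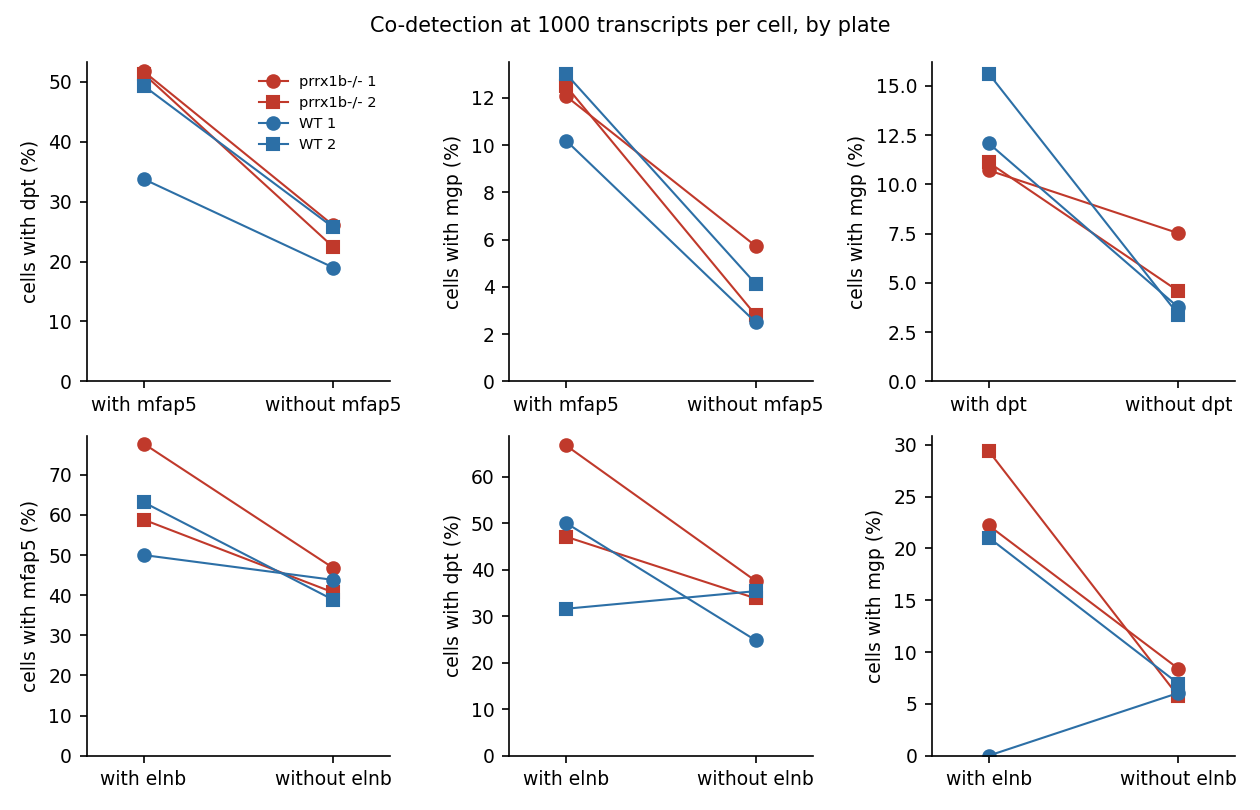
Percent of cells with a transcript of one gene (vertical axis) among cells with and without a transcript of another (horizontal axis), each cell thinned to 1000 transcripts; lines join the values of 1 plate, *prrx1b*-/- in red and WT in blue. All 4 plates fall from left to right for *mfap5* with *dpt*, *mfap5* with *mgp* and *dpt* with *mgp*, whereas 1 plate runs the other way for *elnb* with *dpt* and for *elnb* with *mgp*.

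Levels within cells were also most alike for *mfap5* and *dpt*. The Pearson correlation of log2(1 + transcripts per 5000) over the cells of a plate, averaged over the 4 plates, was 0.48 for *mfap5* with *dpt* (0.41 to 0.55 on single plates). It was 0.31 for *mfap5* with *mgp* (0.26 to 0.36), 0.21 for *dpt* with *mgp* (0.11 to 0.29), and no higher than 0.13 for any pair with *elnb*. These are descriptions over 357 to 366 cells of a plate, which share a library, and the scaling by total can itself link genes. After the log2 total per cell was removed from each gene, a setting chosen after the data were seen, the values were 0.44, 0.28 and 0.18 for the 3 pairs without *elnb*.

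The genes most like each member were ranked among the 5783 others found in at least 10% of the cells. For *mfap5* they were THBS3 (r = 0.54), *cd34* (0.54), *fgl2b* (0.52), *dpt* (0.48), DCN (0.48) and ADD3 (0.48). THBS3 encodes a thrombospondin, *cd34* a sialomucin of the cell surface and DCN the collagen-binding proteoglycan decorin. For *dpt* they were THBS3 (0.56), DCN (0.54), *mfap5* (0.48), the secreted serine protease HTRA1 (0.48), *cd34* (0.46) and the collagen VI chain COL6A3 (0.43). For *mgp* they were DCN (0.35), the secreted Wnt antagonist *frzb* (0.35), *mfap5* (0.31), ENSDARG00000087508 (0.30), *cd34* (0.29) and the proteoglycan PRELP (0.29). DCN and *cd34* thus stood among the first 6 of *mfap5*, *dpt* and *mgp*, and THBS3 among those of *mfap5* and *dpt*.

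For *elnb* no gene reached a correlation of 0.2. The first 6 were ENSDARG00000069994 (0.17), FNDC1 (0.16), CILP2 (0.16), *mfap5* (0.13), *pcolcea* (0.13) and COL1A1 (0.13), with ranges on single plates such as 0.02 to 0.28 for CILP2, and such values in sparse counts are no finding. Over 16 other elastic fibre genes the median correlation was 0.02 with *elnb*, 0.06 with *mfap5*, 0.11 with *dpt* and 0.02 with *mgp*. The highest single values were 0.35 and 0.28 for *vcanb*, a versican, with *mfap5* and *dpt*, 0.20 for EMILIN2, an elastin microfibril interfacer, with *mgp*, and 0.12 for *fbln5* with *elnb*. EMILIN2 also had 0.29 with *mfap5* and 0.25 with *dpt*, and the crosslinking enzyme LOXL1 had 0.25 with *dpt*. The lowest values with *mfap5*, *dpt* and *mgp* were those of the fibulin EFEMP2, at -0.31, -0.26 and -0.17.

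**Figure D4:**
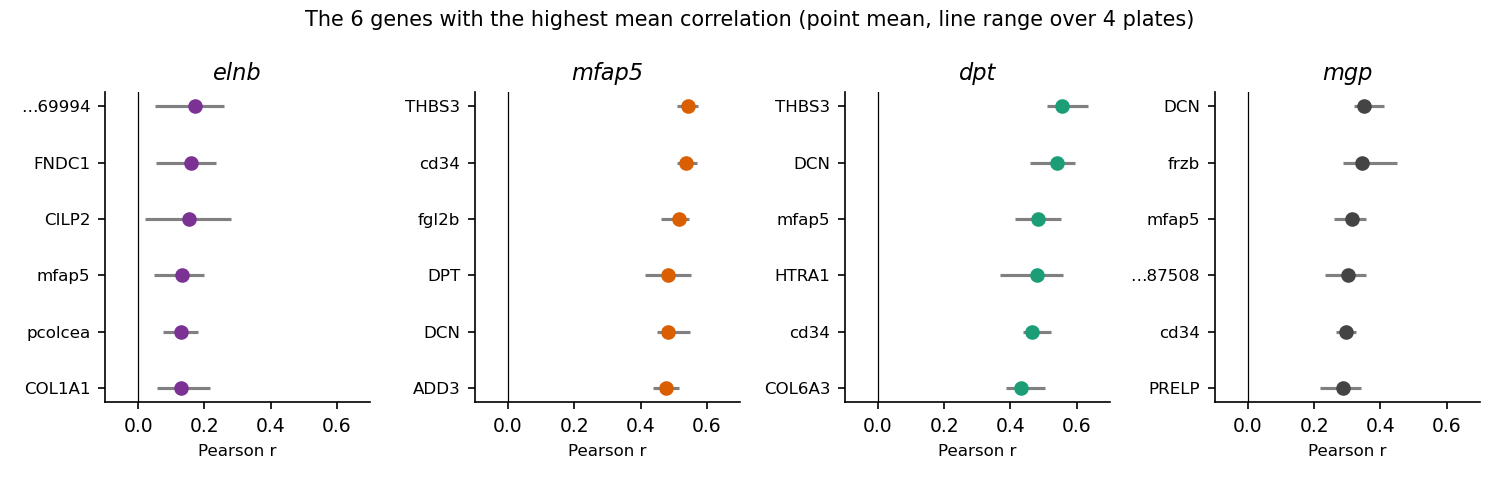
Pearson r (horizontal axis) of the 6 genes most correlated with each member, over the cells of a plate; points are means over 4 plates and lines the range over plates, and a gene without a symbol is shown by the last digits of its ID. The first genes of *mfap5* and *dpt* lie at 0.54 and 0.56, those of *mgp* at 0.35 and those of *elnb* at 0.17.

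At the other end, the gene furthest from *mfap5*, *dpt* and *mgp* was in each case *si:ch211-198c19.3* (ENSDARG00000095533), with mean correlations of -0.57, -0.43 and -0.21, named after its values were seen. For *mfap5* it was followed by RDH10 (-0.45), an enzyme of retinoic acid synthesis. Next came *si:busm1-57f23.1* (-0.43), COL12A1 (ENSDARG00000078322, -0.42), ALDH1A2 (-0.40) and the collagen gene *col11a1b* (-0.40). ALDH1A2, the retinaldehyde dehydrogenase expressed in epicardium near an injury, had -0.40 with *mfap5* and -0.33 with *dpt*. After removal of the log2 total per cell the values with *mfap5* were weaker. They were then -0.46 for *si:ch211-198c19.3*, -0.32 for RDH10 and -0.26 for ALDH1A2. All 4 markers of injury epicardium (ALDH1A2, *wt1b*, *adh8a* and *cldc1*) had a negative mean correlation with *mfap5*, *dpt* and *mgp*, with medians of -0.32, -0.28 and -0.15. All 4 markers of remote epicardium (TCF21, TBX18, HSPH1 and RTCA) had a positive one, with medians of 0.20, 0.16 and 0.05. With *mgp* the sign was not the same on all plates for TCF21 (-0.02 to 0.14), TBX18 (-0.05 to 0.13) and RTCA (-0.06 to 0.16). Only the heat shock gene HSPH1 (0.07 to 0.15) was positive with *mgp* on every plate. Fibroblast and smooth muscle genes went both ways with *mfap5*, from -0.42 to 0.30 and from -0.04 to 0.42.

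Depth moved with these patterns. The level of *mfap5* correlated with the log2 total of a cell at -0.42 on average over the plates, that of *dpt* at -0.22, that of *mgp* at -0.14 and that of *elnb* at -0.03. When the cells of each plate were split by total into 3 equal parts, *mfap5* in the shallowest part was at 1693 and 1494 CPM on *prrx1b*-/- plates and 1356 and 1642 CPM on WT plates. In the deepest part it was at 250 and 214 CPM on *prrx1b*-/- plates and 275 and 197 CPM on WT plates. The difference between these parts was present on every plate and larger than any between plates.

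Cells were grouped into 10 clusters without the 4 genes, by k-medoids on the remaining variable genes, and are given by their number of cells and leading genes. No cluster is given a cell type here, because few markers stood among the leading genes. Values over clusters are descriptions with no test, since the genes that formed the clusters correlate with the 4 members.

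*mfap5* was highest in the cluster of 65 cells led by FOS, *egr2a* and IRF8, at 1869 CPM over all plates. The cluster of 85 cells led by *hsp70l*, HSPB1 and HSPH1, all of them heat shock genes, had 1641 CPM, and that of 179 cells led by MDK (ENSDARG00000020708), AOC3 and MFSD2A had 1533 CPM. The plates ranged from 1504 to 2482, from 1133 to 2040 and from 1123 to 1801 CPM in these clusters, so their order is not resolved. The lowest level, 142 CPM, was that of the 71 cells led by the fibrillar collagen genes COL11A1 and *col11a1b* and by CILP2, with plates between 134 and 155 CPM. The median total per cell was 4283, 4020 and 4099 transcripts in the first 3 clusters and 17913 in the last.

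*dpt* was highest in the heat shock cluster, at 1008 CPM, and in the cluster of 69 cells led by *mgp*, *hapln1a* and FN1, at 958 CPM. The plates ranged from 542 to 1299 CPM and from 816 to 1260 CPM there, and those of the clusters of 65 and 179 cells (870 and 856 CPM) overlapped them, so the order at the top is not resolved. It was lowest, at 173 CPM, in the cluster of 183 cells led by *si:dkeyp-1h4.9*, *si:ch211-106h4.12* and *si:dkey-238c7.13*, and at 192 CPM in the COL11A1 cluster. *mgp* reached 400 CPM in the cluster that it led, 6.01 times its level in the other cells when 10 CPM was added to both. It was found in 56.5% of the cells of that cluster. It stood at 343 CPM in the heat shock cluster and at 15.0 CPM in the COL11A1 cluster. The plates ranged from 246 to 560 CPM in the *mgp* cluster and from 108 to 664 CPM in the heat shock cluster, so their order is not resolved. The 69 cells of the *mgp* cluster, 4.75% of all, held 24.1% of its transcripts.

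The order of *elnb* over clusters was not resolved. Its pooled level was highest, at 252 CPM, in the 199 cells led by *si:dkeyp-1h4.9*, *s100a10a* and *si:dkey-238c7.13*, where the plates had 7.02 and 603 CPM in *prrx1b*-/- and 52.1 and 39.1 CPM in WT. In the 133 cells led by *si:ch211-184m19.3*, *col18a1a* and *si:ch73-308b14.1*, *prrx1b*-/- plate 1 had 1034 CPM and the other plates no more than 43.0. The share of cells with *elnb* was between 6.2% and 21.7% in every cluster. In the 33 cells with at least 5 *elnb* transcripts, 9 smooth muscle genes summed to 4390 CPM, against 1294 CPM in all other cells, with each of the 9 higher. This rested on 4 cells of *prrx1b*-/- plate 1, at 11363 against 1496 CPM, and 8 cells of WT plate 2, at 7869 against 945 CPM. On *prrx1b*-/- plate 2, which had 14 of these cells, the sums were 1275 and 1285 CPM, and on WT plate 1 they were 1435 and 1350 CPM. A transcript of *acta2*, smooth muscle actin, which was named after its values were seen, was present in 8 of the 33 cells (24.2%), against 16.7% of the others. On *prrx1b*-/- plate 2 these shares were 7.14% and 13.4%, whereas on each of the other plates the first was the higher. It rested there on 3 of 4 cells on *prrx1b*-/- plate 1, 2 of 7 on WT plate 1 and 2 of 8 on WT plate 2. With so few cells the direction on single plates is not resolved. A single cell held 61.1% of the *acta2* transcripts of such cells on *prrx1b*-/- plate 1, and 89.2% on WT plate 2. The 6 pericyte genes were each higher in the 33 cells too, with a sum of 1011 CPM against 630 CPM over all plates. So were 8 of 13 fibroblast genes (59155 against 43341 CPM in sum), but only 1 of 4 injury epicardium genes. These sums were not split by plate, and the share of all genes that were higher in the 33 cells was not measured. The median total was 7740 transcripts in the 33 cells and 6571 in the other cells.

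**Figure D5:**
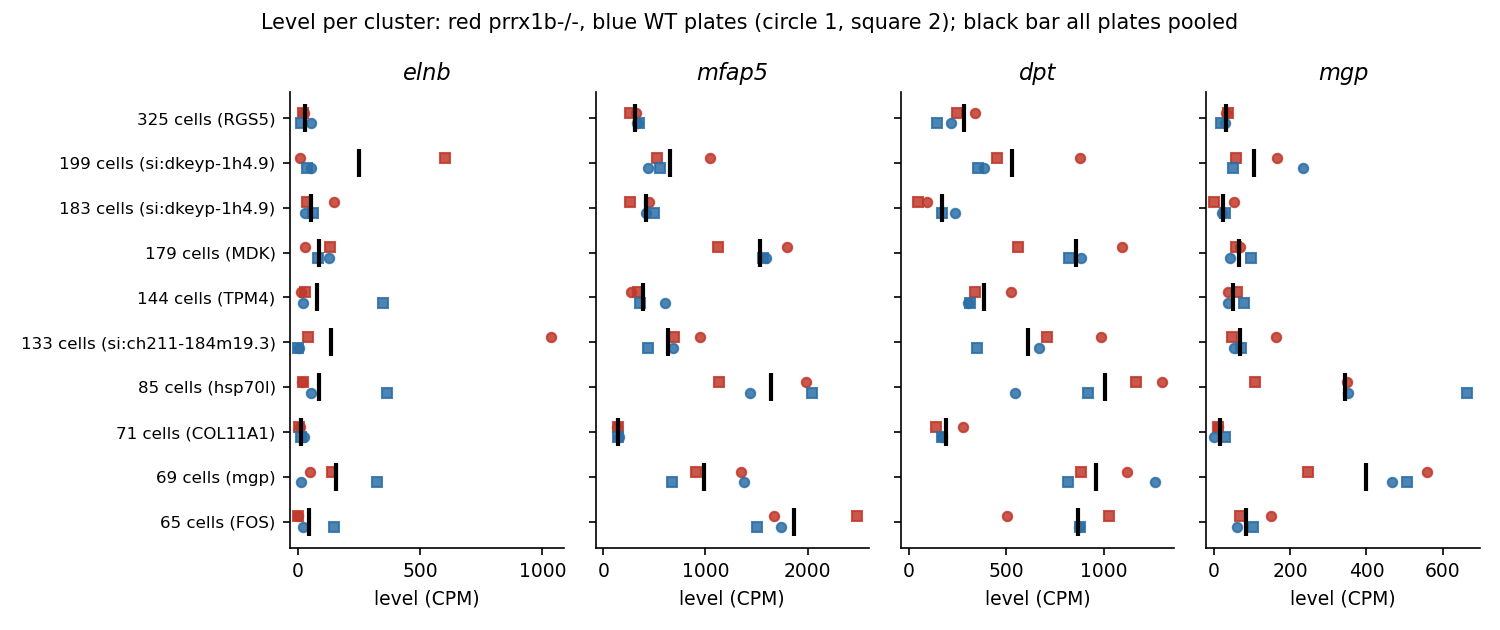
Level in CPM (horizontal axis) of each gene in 10 clusters (rows, named by their number of cells and first leading gene); red marks are *prrx1b*-/- plates, drawn above the blue WT plates, and the black bar pools all plates. *mfap5* lies between 134 and 155 CPM on every plate in the 71 cells led by COL11A1 and at 1123 CPM or more in the clusters of 179, 85 and 65 cells, whereas single plates set the highest *elnb* values.

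Within clusters, both *prrx1b*-/- plates were above both WT plates for *dpt* in 5 of 10 clusters, those of 325, 199, 144, 133 and 85 cells, and below in 1, that of 183 cells. Over all genes tested, 15.9% of gene and cluster pairs were above and 17.9% below, and 4.32% of genes were above in at least 5 clusters. These shares include genes that were not above in their plate sums. The clusters are parts of the same plate sums in which *dpt* was already above, so they give no separate comparison. In the 199 cells, *dpt* averaged 664 CPM in *prrx1b*-/- and 373 CPM in WT, and in the 85 heat shock cells 1232 CPM in *prrx1b*-/- and 730 CPM in WT. In the 183 cells it averaged 72.8 CPM in *prrx1b*-/- and 204 CPM in WT. For *elnb* 1 cluster was above and 3 below, for *mfap5* 1 above and 2 below, and for *mgp* 1 above and 1 below. The cells of a cluster were unequally shared, with between 28.4% and 64.6% of them from *prrx1b*-/- plates and as few as 7 from a plate in the cluster of 65 cells, and shifts between clusters and within them were not separated by a test.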

How the data were processed

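The authors mapped reads to Zv9 with BWA 0.6.2 and deposited, per gene and well, expected counts: molecular barcodes corrected for repeat draws, kept to 2 decimals, with no depth scaling. All 916 distinct values matched the correction for 4096 barcodes within 0.006, whereas the methods name 4-base barcodes. Wells with at least 1000 transcripts (spike-ins excluded) were kept, and 83 wells were left out. Doublets were not looked for, as 1 cell was sorted per well.

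Transcripts were summed per plate, rounded, filtered (filterByExpr), scaled by TMM and tested with edgeR 4.0.16 (quasi-likelihood, genotype only, Benjamini-Hochberg over 11191 genes). Shares were compared by exact permutation over plates, and clusters came from the R package cluster 2.1.8.1 (PAM). The alternatives were DESeq2 1.42.0, limma 3.58.1, other scalings, filters, minimums and depths, a replicate block and leaving out each plate. The edgeR step was tested on simulated counts.

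The genes, lists and tests were chosen with earlier results of these data known. Named were the 4 members, called genes of their lists, fibrillins, fibulins and lysyl oxidases past the filter, the 6 genes most correlated with each member and 3 leading genes per cluster. Of 40 elastic fibre symbols 7 had no match, and those genes were not analysed here. Same-numbered plates deviated together at a correlation of 0.04 and are not paired. A lower level in a pooled sum can be fewer cells or less RNA per cell, which a plate sum does not separate.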

Additional observations from a re-analysis of the deposited data

Results flagged for a closer look

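The 83 wells under 1000 transcripts, which no comparison used, held 24360 transcripts. Of these, 4 were of *elnb*, 14 of *mfap5*, 17 of *dpt* and 3 of *mgp*. The levels of these genes there were 164, 575, 698 and 123 CPM, against 89.2, 576, 440 and 73.3 CPM in cells. The values of *elnb* and *mgp* rest on few counts, and the differences were not tested.

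For each gene the genotypes separated in opposite directions in different clusters, and these differences between clusters were not tested. Of 10 clusters, both *prrx1b*-/- plates were above both WT plates in 1 for *elnb*, 1 for *mfap5*, 5 for *dpt* and 1 for *mgp*. They were below in 3, 2, 1 and 1. Over all genes tested, 15.9% of gene and cluster pairs were above and 17.9% below. The counts of 1 and 2 are near these shares. How many genes separated in both directions was not measured, so it is not read as particular to these 4 genes. As log2 ratios of mean CPM + 10, *prrx1b*-/- over WT, *elnb* had 5.37 in the 133 cells led by *si:ch211-184m19.3* and -3.22 in the 65 cells led by FOS. In the 133 cells, 1 cell of *prrx1b*-/- plate 1 held 154.87 of the 183.89 *elnb* transcripts. Without it the plates had 34.5 and 43.0 CPM in *prrx1b*-/- and 4.32 and 2.18 CPM in WT. The WT values were 1 transcript each, in 27 and 43 cells. With the rich cell, *prrx1b*-/- plate 1 had 159.87 transcripts in 15 cells, and plate 2 had 22.02 in 48 cells. The remaining difference thus rests on counts near the floor. In the 65 cells the *prrx1b*-/- plates had no *elnb* transcript in 7 and 16 cells and the WT plates 2 and 10.01 in 23 and 19 cells, so that the size of the ratio is set by the added 10 CPM. *mfap5* had 0.54 in the same 133 cells and -0.63 in the 144 cells led by TPM4. *dpt* had 0.82 in the 199 cells and -1.37 in the 183 cells led by *si:dkeyp-1h4.9*. *mgp* had 0.39 in the 325 cells led by RGS5 and -1.12 in the 85 cells led by *hsp70l*. These are the furthest in each direction among the pairs in which the plates of the genotypes did not overlap, out of 40 gene and cluster pairs, and are read against the 15.9% above and 17.9% below over all genes. Some ratios were further where the plates overlapped, such as 0.65 for *mfap5* in the 199 cells and 0.69 for *mgp* in the 133 cells.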

How the results depend on the processing

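The number of genes higher and lower in *prrx1b*-/- was 86 and 83 with the DESeq2 test, 269 and 254 with no filter on low counts and 116 and 146 with limma on the mean CPM over cells. With each plate left out it was 29 to 330 higher and 70 to 300 lower, where the lone plate of a genotype is assumed to vary like the other pair. The plate number as a replicate block gave 234 higher and 242 lower, and *elnb* was then called (log2 fold change 0.83, adjusted p = 0.00128, edgeR); the plates share only a number, and the block changed no other call among the 4 genes. With no filter *elnb* was also called (0.84, adjusted p = 5.4e-04). With each plate left out its log2 fold change was 0.17 to 1.60, called without *prrx1b*-/- replicate 1 (1.26) and without WT replicate 2 (1.60), that of *mfap5* was -0.065 to 0.12, that of *dpt* 0.28 to 0.57 and that of *mgp* -0.43 to 0.14. For *mgp* limma gave 0.074. The difference in the share of cells was -0.46 percentage points for *elnb* with thinned cells and -0.093 points for *mfap5* in wells with at least 2000 transcripts. With each plate left out it was -0.31 to 3.24 points for *elnb* and -1.95 to 4.90 points for *mfap5*. The excess of *mfap5* among cells with *elnb* was 5.70 points and 19.3 points with thinned cells, and that of *mgp* among cells with *dpt* was 12.6 points and 7.62 points. With 8 clusters the highest cluster of *mgp* was one of 123 cells at 250 CPM, in place of the 69 cells at 400 CPM. With cells thinned before clustering it was one of 77 cells at 345 CPM. The cause of these changes was not tested. With the total per cell removed, 5, 5, 6 and 5 of the first 6 genes of *elnb*, *mfap5*, *dpt* and *mgp* stayed among the first 6. The level of *elnb* is limited by the 7 cells that hold 62.7% of its transcripts, and 2 plates per genotype leave a share no p under 0.333.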
